A study of Mus musculus with 8 samples.

Results

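Phase II conjugation enzymes attach a polar group to a drug, hormone, bile acid or pigment. The genes described here are the 59 mouse genes, of 21968 named genes in the files, whose symbols begin with Ugt1, Ugt2 or Ugt3 (UDP-glucuronosyltransferases, 20 genes), with Gst followed by a, k, m, o, p, t or z (cytosolic and mitochondrial or peroxisomal glutathione S-transferases, 21 genes) or with Sult1 to Sult5 (cytosolic sulfotransferases, 18 genes); entries marked as pseudogenes were left out. The members were chosen by name only. Of the 59, 51 passed the filter on low read counts and were tested; 8 did not (Gstt4, Sult1c1, Sult2a4, Sult2a6, Ugt1a2, Ugt2a1, Ugt2a2 and Ugt2b38), and 1 of these, Ugt2a1, had 0 reads in every library.

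RNA was sequenced in bulk from 4 groups of liver cells, all from Lgr5-LacZ transgenic mice on a mixed C57BL/6 and CBA background, 6 days after 1 intraperitoneal dose of carbon tetrachloride (CCl4, 1 µl per g of body weight, in rapeseed oil). Their stated age is 10 to 12 weeks in the labels of the samples but 7 to 12 weeks in the description of the series. The groups were b-gal+ F4/80high cells and b-gal- F4/80high cells, divided by the activity of the LacZ reporter (β-galactosidase, read with a fluorogenic substrate) within cells bright for the macrophage antigen F4/80, EpCAM-positive cells (cholangiocytes, by the description of the series) and hepatocytes, which were pelleted by low-speed centrifugation. Each group had 2 libraries and each library pooled cells of 2 mice. No uninjured group was analysed, so every value below is a level after CCl4. Nothing in the labels states whether the libraries of a group came from separate sorts, so p-values measure the spread between these samples, which may be partly technical. Y-linked reads, described below, were found in the replicate 1 libraries only, so replicates 1 and 2 did not pool the same mice.

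In glucuronidation, UGTs of the endoplasmic reticulum transfer glucuronic acid from UDP-glucuronate. GSTs add the tripeptide glutathione to electrophiles such as products of lipid peroxidation. SULTs transfer sulfonate from the activated sulfate donor PAPS to phenols, steroids and bile acids. The hepatocyte is the main site of all 3 reactions in the liver, and the conjugates leave it for bile or blood through ABC transporters. CCl4 itself is activated by cytochrome P450 in the hepatocytes around the central vein, and the lesion heals over the days after a single dose.

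Read depth was 16948568 to 24549242 reads in named genes per library. Before scaling, 3 reads, taken as the limit of detection, thus correspond to 0.122 to 0.177 counts per 1000000 reads (CPM). Levels are CPM scaled with TMM factors, which were 0.552 and 0.527 in the hepatocyte libraries and 1.06 to 1.49 in the others. In scaled CPM the same limit is therefore higher in hepatocytes, and lower elsewhere, than before scaling. Fixed marker lists were used to check the labels. The summed level of 12 Kupffer cell and macrophage markers was 42919 and 41518 CPM in the b-gal+ libraries, 6031 and 3181 in the b-gal- libraries, 2077 and 405 in the EpCAM-positive libraries and 448 and 314 in hepatocytes. That of 12 sinusoidal endothelial markers was 4725 and 3517 CPM in the b-gal+ libraries, 25139 and 29544 in the b-gal- libraries, 10920.1 and 9210.4 in the EpCAM-positive libraries and 569.8 and 1332 in hepatocytes, so the b-gal- F4/80high libraries held more endothelial than macrophage marker RNA. Cholangiocyte markers (12 genes) summed to 660.0 and 57.8 CPM in the b-gal+ libraries and 1274 and 91.4 in the b-gal- libraries. They summed to 2269 and 7568 CPM in the EpCAM-positive libraries and 385 and 307 in hepatocytes. In the F4/80high libraries nearly all of this was Spp1, without which the sum was 4.35 to 12.8 CPM. Without Spp1 it was 431 and 1880 CPM in the EpCAM-positive libraries and 271 and 297 in hepatocytes. Both EpCAM-positive libraries held Epcam (88.6 and 214 CPM) and Krt19 (28.4 and 112), together with endothelial markers and with B and plasma cell markers at 4294 and 1656 CPM. They also differed more from each other across genes (Spearman's rho 0.926) than did the pairs of the other groups (0.980 to 0.985). The Y-linked genes Ddx3y, Eif2s3y, Kdm5d and Uty had reads in the replicate 1 library of every group and 0 reads in every replicate 2 library, so a difference between replicates 1 and 2 cannot be told apart from one that moves with Y-linked RNA.

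The 8 Ugt1a genes lie in 1 cluster (chr1:88055388-88220002, + strand, GRCm38) and are spliced from separate first exons to common last exons; each first exon has its own promoter. Between 50.3% and 82.7% of the exonic length of a Ugt1a gene belongs to another gene too. The promoters of 5 of them are shown to set those with and without a motif side by side: 3 that hold it (Ugt1a10, Ugt1a9 and Ugt1a1), Ugt1a6a, which was also highest in hepatocytes but lacks these letters, and Ugt1a7c, which was not highest in hepatocytes and lacks them too. Each is the 300 bases from 250 before to 50 after the gene's start in RefSeq (GRCm38.p6), 5′ to 3′ on the + strand: Ugt1a10 at chr1:88055161-88055460, Ugt1a9 at chr1:88070529-88070828, Ugt1a7c at chr1:88094751-88095050, Ugt1a6a at chr1:88134559-88134858 and Ugt1a1 at chr1:88211709-88212008. Capitals mark a match, on either strand, to GTTAAT followed by any base and ATT, the core of the site for HNF1 (a liver and kidney transcription factor).
Ugt1a10: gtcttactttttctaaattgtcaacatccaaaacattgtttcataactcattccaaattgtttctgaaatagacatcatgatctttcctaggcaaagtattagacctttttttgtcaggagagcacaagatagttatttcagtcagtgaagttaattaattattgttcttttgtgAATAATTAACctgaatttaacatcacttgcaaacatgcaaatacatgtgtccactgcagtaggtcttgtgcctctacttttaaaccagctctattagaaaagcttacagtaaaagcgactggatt
Ugt1a9: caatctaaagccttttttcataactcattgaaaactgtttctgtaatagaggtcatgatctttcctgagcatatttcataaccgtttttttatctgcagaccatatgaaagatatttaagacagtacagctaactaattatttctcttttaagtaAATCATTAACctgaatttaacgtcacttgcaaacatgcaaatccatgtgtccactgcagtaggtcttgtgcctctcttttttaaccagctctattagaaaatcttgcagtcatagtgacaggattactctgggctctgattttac
Ugt1a7c: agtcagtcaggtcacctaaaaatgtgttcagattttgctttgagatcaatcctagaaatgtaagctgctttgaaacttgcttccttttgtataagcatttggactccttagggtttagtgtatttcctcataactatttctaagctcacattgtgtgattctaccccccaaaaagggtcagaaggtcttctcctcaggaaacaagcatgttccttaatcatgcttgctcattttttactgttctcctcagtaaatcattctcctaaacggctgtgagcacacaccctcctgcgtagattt
Ugt1a6a: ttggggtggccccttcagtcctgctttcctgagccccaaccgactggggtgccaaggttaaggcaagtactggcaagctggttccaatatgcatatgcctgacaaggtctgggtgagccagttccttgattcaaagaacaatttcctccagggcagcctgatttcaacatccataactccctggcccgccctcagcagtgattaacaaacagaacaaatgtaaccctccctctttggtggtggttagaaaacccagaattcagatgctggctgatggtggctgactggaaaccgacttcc
Ugt1a1: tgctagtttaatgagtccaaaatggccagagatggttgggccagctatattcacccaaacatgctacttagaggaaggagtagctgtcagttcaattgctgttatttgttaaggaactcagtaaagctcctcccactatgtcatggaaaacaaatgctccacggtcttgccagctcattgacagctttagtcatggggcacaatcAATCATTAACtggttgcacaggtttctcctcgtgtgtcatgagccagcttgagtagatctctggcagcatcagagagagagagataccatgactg
The match began at -75 from the gene's start in Ugt1a10, at -95 in Ugt1a9 and at -45 in Ugt1a1, and these letters were not found in the windows of Ugt1a7c, Ugt1a6a, Ugt1a5 and Ugt1a2. The motif did not divide the cluster fully by level. Ugt1a1 (241 and 355 CPM) and Ugt1a9 (267 and 434 CPM), with it, were the highest of the cluster in hepatocytes. Ugt1a5 and Ugt1a6a, without it, were at 23.1 to 35.7 CPM there, and Ugt1a10, with it, at 2.22 and 3.03 CPM. Among all 32851 RefSeq promoter windows of this length, 0.399% held the motif. Of the 62 windows of the 51 members with an entry, 8 did (12.9%): 3 of 18 UGT windows, 0 of 27 GST windows and 5 of 17 SULT windows. The windows of Ugt1a10 and Ugt1a9 are alike around the match, as are those of Sult2a3, Sult2a4 and Sult2a5. The 8 windows are therefore not independent of each other. The SULT matches were in Sult1d1 and in 4 neighbours of the Sult2a cluster, of which Sult1d1 (chr5:87568957-87569256, - strand, match at -79) and Sult2a5 (chr7:13623717-13624016, + strand, match at -28) are shown, each in its own 5′ to 3′ direction.
Sult1d1: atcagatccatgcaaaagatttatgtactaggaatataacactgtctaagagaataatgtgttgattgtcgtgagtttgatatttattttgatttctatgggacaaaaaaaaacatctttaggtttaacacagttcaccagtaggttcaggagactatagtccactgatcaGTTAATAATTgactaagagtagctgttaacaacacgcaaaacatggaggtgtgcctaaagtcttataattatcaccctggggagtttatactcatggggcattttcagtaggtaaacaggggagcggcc
Sult2a5: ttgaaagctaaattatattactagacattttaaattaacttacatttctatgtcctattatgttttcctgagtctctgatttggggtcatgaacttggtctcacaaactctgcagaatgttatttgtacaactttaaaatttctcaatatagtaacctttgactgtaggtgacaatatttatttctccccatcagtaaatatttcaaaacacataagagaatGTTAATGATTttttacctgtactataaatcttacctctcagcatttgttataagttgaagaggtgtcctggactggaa
Matches to CAAAGTCCA, the core of an HNF4 site, were found in 1 member window (Sult1b1) against 0.475% of all windows. TGACNNNGC, the antioxidant response element bound by NRF2, was found in 3 member windows (Gsta3, Gstm5 and Gstm7), which is 4.84% against 12.4% of all windows. Both strands were searched for each motif; the GST windows with the antioxidant motif and the windows with the HNF1 motif did not overlap. A match describes the letters only, and binding was not measured.

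All 3 families took far more of the reads in hepatocytes than in the other sorts. Before scaling, the 59 members took 0.727% and 0.783% of reads in the hepatocyte libraries and 0.0264% to 0.0718% in the others. The sums below are in scaled CPM, where the TMM factors widen this gap. Summed over the family, UGT RNA was at 5827 ± 1109 CPM in hepatocytes (mean ± SD, n = 2), 31.5 ± 16.9 in EpCAM-positive cells, 27.4 ± 6.42 in b-gal+ and 16.1 ± 3.07 in b-gal- F4/80high cells. GST RNA was at 6003 ± 544, 281 ± 140.1, 177 ± 16.0 and 181 ± 3.67 CPM in the same order. SULT RNA was at 2196 ± 467, 48.1 ± 16.4, 52.1 ± 6.79 and 34.6 ± 10.5 CPM. Most reads of these enzymes outside hepatocytes thus came from the GST family. Within hepatocytes the UGT sum (5043 and 6611 CPM) and the GST sum (5618 and 6387 CPM) overlapped. In bulk RNA, fewer cells of a type and less RNA per cell cannot be told apart. In 46 of 59 members both hepatocyte libraries lay above all 6 others (16 UGT, 17 GST and 13 SULT genes), in 3 both lay below (Ugt1a7c, Sult2b1 and Sult4a1), and 10 had 0 reads in all 6 libraries outside hepatocytes. These patterns were counted for the members only, so no share of all genes stands beside them.

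**Figure D1:**
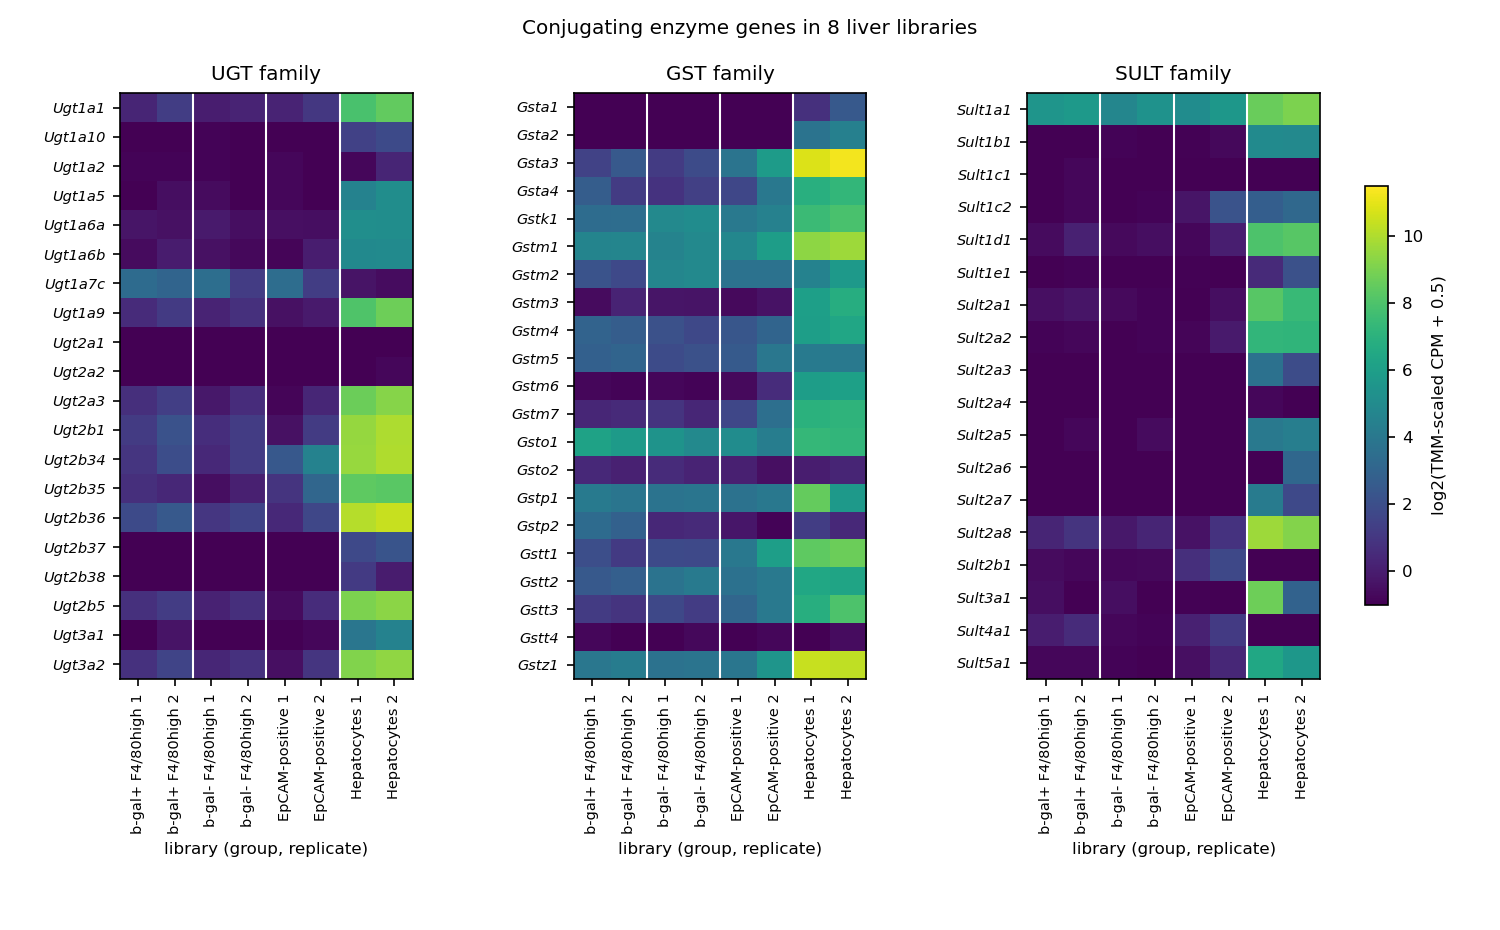
Levels of all 59 members (rows) in the 8 libraries (columns, 2 per group, white lines between groups), coloured by log2(TMM-scaled CPM + 0.5). The hepatocyte columns on the right of each panel are brightest for 52 members by group mean; Ugt1a7c, Gsto2, Gstp2, Sult2b1 and Sult4a1 are among the exceptions, and many GST rows but few UGT or SULT rows keep a visible level in the other columns.

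Both other cell types were compared with the same hepatocyte libraries, so the results of these comparisons share controls. Between F4/80high cells (mean of both gates) and hepatocytes, 46 of the 51 tested members were lower at an adjusted p under 0.05 (limma, Benjamini-Hochberg over 14404 genes), where 31.4% of all genes tested were lower; 1, Ugt1a7c, was higher, where 34.8% of all genes were. The median log2 difference was -7.75 for the 16 tested UGTs, -4.32 for the 20 GSTs and -5.05 for the 15 SULTs, against 0.158 over all genes. For EpCAM-positive cells against hepatocytes, 46 of 51 were lower (background 29.1%) and 3 were higher (Ugt1a7c, Sult2b1 and Sult4a1; background 33.5%), with medians of -6.32, -3.53 and -5.20 against 0.145 over all genes. With members at 0 reads in a group set to a bound of 3 reads over that group, the medians over all tested members moved from -5.49 to -6.45 for F4/80high cells and from -5.11 to -5.73 for EpCAM-positive cells. Under the scaling of the deposited values the median of all genes moved to 1.03 and 1.32 in these comparisons. There 43 and 42 members were still lower, beside 16.1% and 11.8% of all genes. The count of members above hepatocytes in F4/80high cells was 3 under that scaling (all genes, 60.1%) and also without either EpCAM-positive library (all genes, 37.7%). With the replicate number as a block it was 2 (all genes, 36.9%), the added gene being Gstp2 (adjusted p = 0.025).

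Among the UGTs, the Ugt2 genes led in hepatocytes. Per kb of annotated exon, the group mean in hepatocytes was highest for Ugt2b36 (605.3 CPM per kb), followed by Ugt2b1 (337.4), Ugt2b5 (315.2) and Ugt2a3 (241.1), members of subfamilies that conjugate steroids, bile acids and drugs. Ugt1a9 was at 160.0 and Ugt1a1 at 134.0 CPM per kb of full exonic length. Of that length, 59.9% and 82.7% belong to another gene too. If reads in shared exons were not counted, these values are too low, so the rank of the Ugt1a genes per kb is uncertain. Ugt2b36 was at 3.0 and 5.19 CPM in the b-gal+ libraries, 1.46 and 2.40 in the b-gal- libraries, 0.851 and 2.62 in the EpCAM-positive libraries and 1095 and 1398 in hepatocytes. It was lower in F4/80high cells (log2 difference -8.57, SE 0.397, adjusted p = 5.87e-06) and in EpCAM-positive cells (log2 difference -9.24, SE 0.458, adjusted p = 1.51e-05). Ugt2b1 stood at 1.74 and 3.90 CPM in the b-gal+ libraries, 1.04 and 1.81 in the b-gal- libraries, 0.243 and 1.72 in the EpCAM-positive libraries and 745 and 991 in hepatocytes. Ugt2b5 had levels of 1.16 and 1.81 CPM in the b-gal+ libraries, 0.653 and 1.13 in the b-gal- libraries, 0.152 and 1.01 in the EpCAM-positive libraries and 522 and 649.8 in hepatocytes; 41.7% of its 50-base stretches also occur in another gene, so its reads may be split with Ugt2b38 and Ugt2b37. Ugt2a3 was measured at 1.12 and 2.01 CPM in the b-gal+ libraries, 0.384 and 0.979 in the b-gal- libraries, 0.0608 and 0.748 in the EpCAM-positive libraries and 413 and 608 in hepatocytes. In all 4 genes both hepatocyte libraries lay far above every other library, and none of the 4 passed the test between b-gal+ and b-gal- cells (adjusted p of 0.214, 0.426, 0.476 and 0.3). With the replicate number as a block Ugt2b36 passed it (log2 difference 0.90, SE 0.253, adjusted p = 0.0448) and the other 3 did not. Under the block Ugt2a3 was also lower in EpCAM-positive than in F4/80high cells (log2 difference -0.86, adjusted p = 0.0437; 0.216 without the block).

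The 7 Ugt2b genes lie in 1 stretch of chromosome 5 (chr5:86889767-87424203). Ugt2b37 had 39 and 54 reads in the hepatocyte libraries and 0 in the 6 others, which makes it at least 112-fold lower in F4/80high cells when 3 reads over the group are taken as the floor. Ugt2b38, not tested, had 23 and 6 reads in hepatocytes only. Ugt2b34 was at 1.43 and 3.34 CPM in the b-gal+ libraries, 0.845 and 1.81 in the b-gal- libraries, 4.86 and 23.1 in the EpCAM-positive libraries and 751 and 1037 in hepatocytes. Ugt2b35 stood at 1.12 and 0.805 CPM in the b-gal+ libraries, 0.192 and 0.587 in the b-gal- libraries, 1.34 and 8.23 in the EpCAM-positive libraries and 336 and 315 in hepatocytes. These 2 differ from their neighbours in the EpCAM-positive libraries, where they exceeded every F4/80high library; Ugt2b34 passed the test against F4/80high cells (log2 difference 2.36, SE 0.612, adjusted p = 0.0382) and Ugt2b35 did not (adjusted p = 0.0733). Of the Ugt3 genes, which use other UDP-sugars as donors, Ugt3a2 was at 561 and 692 CPM in hepatocytes and at most 2.49 elsewhere, and Ugt3a1 at 14.5 and 22.6 CPM and at most 0.282.

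Of the 7 tested genes of the Ugt1a cluster, 6 were lower in both F4/80high and EpCAM-positive cells and 1, Ugt1a7c, was higher. Ugt1a1 was at 0.716 and 1.89 CPM in the b-gal+ libraries, 0.499 and 0.685 in the b-gal- libraries, 0.669 and 1.53 in the EpCAM-positive libraries and 241 and 355 in hepatocytes; its product is the enzyme that conjugates bilirubin. Ugt1a9 stood at 0.939 and 1.69 CPM in the b-gal+ libraries, 0.691 and 1.17 in the b-gal- libraries, 0.243 and 0.449 in the EpCAM-positive libraries and 267 and 434 in hepatocytes, and both genes were lower in F4/80high cells (log2 difference -7.75, SE 0.388, adjusted p = 7.60e-06 for Ugt1a1; log2 difference -7.75, SE 0.333, adjusted p = 4.95e-06 for Ugt1a9). Ugt1a5, Ugt1a6a and Ugt1a6b, the last pair near-identical and possibly sharing reads, reached 23.1 to 35.7 CPM in hepatocytes and at most 0.486 CPM elsewhere. Ugt1a10 reached 2.22 and 3.03 CPM in hepatocytes, with 1 read among the other 6 libraries. Ugt1a9 was lower in EpCAM-positive than in F4/80high cells with the replicate number as a block (log2 difference -0.92, adjusted p = 0.0285), and not without it (adjusted p = 0.105). Whether reads in the common last exons were counted is not given in the sources used here, and all Ugt1a values are uncertain to that degree.

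Ugt1a7c went the other way. Ugt1a7c was at 9.93 and 7.56 CPM in the b-gal+ libraries, 10.8 and 1.81 in the b-gal- libraries, 10.5 and 1.91 in the EpCAM-positive libraries and 0.295 and 0.160 in hepatocytes (4 and 2 reads). Hepatocytes held the lowest values, and the replicates of b-gal- and of EpCAM-positive cells lay far apart. It exceeded its hepatocyte level in F4/80high cells (log2 difference 3.24, SE 0.782, adjusted p = 0.00882) and in EpCAM-positive cells (log2 difference 2.83, SE 0.903, adjusted p = 0.03). Both calls were lost when either hepatocyte replicate was left out, and the second also without EpCAM-positive replicate 1 or with a pseudocount of 2. Levels of 6 monocyte and neutrophil markers varied between the same libraries, summing to 297 and 192 CPM in the b-gal+ libraries, 700.3 and 141 in the b-gal- libraries, 589 and 99.2 in the EpCAM-positive libraries and 10.9 and 4.23 in hepatocytes; the part of such cells in the Ugt1a7c values was not tested. Ugt1a7c is named, like Gstp2, Sult2b1 and Sult4a1, after its values were seen, since its level is under 10 CPM in most libraries.

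The GST genes that led in hepatocytes came from several classes. Per kb of exon the highest hepatocyte means were those of Gstm1 (496.8 CPM per kb), Gsta3 (494.5), Gstz1 (261.4) and Gstt1 (243.6). Gsta3 was at 2.24 and 5.11 CPM in the b-gal+ libraries, 1.73 and 3.18 in the b-gal- libraries, 13.4 and 57.5 in the EpCAM-positive libraries and 1830.2 and 2466 in hepatocytes. Gsta3, an alpha-class transferase of organic hydroperoxides and toxins, had a log2 difference of -9.31, SE 0.588, adjusted p = 1.78e-05 in F4/80high cells against hepatocytes. Gstz1 stood at 15.0 and 18.4 CPM in the b-gal+ libraries, 12.4 and 13.7 in the b-gal- libraries, 14.3 and 44.9 in the EpCAM-positive libraries and 1384 and 1276 in hepatocytes; this enzyme, maleylacetoacetate isomerase, acts in tyrosine breakdown. It was also lower in F4/80high cells (log2 difference -6.45, SE 0.399, adjusted p = 1.66e-05).

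Gsta1 and Gsta2 had 0 reads outside hepatocytes. Of the 50-base stretches of Gsta1, 90.5% occur in another gene, most often Gm3776 (75.7%), and of those of Gsta2 49.8% do, most often in Gsta1 (36.0%), so the reads of both are uncertain. Gsta2 was at 13.1 and 21.4 CPM and Gsta1 at 1.18 and 5.03 CPM in hepatocytes, so that F4/80high cells were at least 539-fold and 97.0-fold lower. Gsta4, which conjugates hydroxynonenal, was by contrast present in all libraries, at 119 and 157 CPM in hepatocytes and 1.27 to 15.5 CPM elsewhere. The alpha class therefore contained both genes read only in hepatocytes and a gene read in every sort.

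The 7 mu-class genes lie side by side (chr3:107895821-108044894). Gstm1 was at 24.1 and 25.5 CPM in the b-gal+ libraries, 23.6 and 29.4 in the b-gal- libraries, 26.9 and 61.8 in the EpCAM-positive libraries and 654 and 809.7 in hepatocytes. It was lower in F4/80high cells (log2 difference -4.80, SE 0.313, adjusted p = 2.01e-05); it was at 23.6 to 29.4 CPM in all 4 F4/80high libraries. Gstm3 and Gstm6 were near the limit of detection outside hepatocytes: Gstm3 at 65.7 and 110.3 CPM in hepatocytes and at most 0.684 elsewhere, Gstm6 at 61.7 and 68.6 CPM and at most 1.01. Gstm5 was at 17.1 and 16.0 CPM in hepatocytes and 3.15 to 14.9 in the others. It was lower in F4/80high cells than in hepatocytes (log2 difference -1.63, SE 0.382, adjusted p = 0.00765), and the difference between EpCAM-positive cells and hepatocytes did not pass the test (log2 difference -0.83, SE 0.441, adjusted p = 0.14). Gstm2 reached levels in b-gal- cells that overlapped those of hepatocytes.

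The b-gal+ and b-gal- F4/80high cells differed in 4 of the 51 tested members, all GSTs: 3 were lower in b-gal+ cells (Gstm2, Gstk1 and Gstt2), where 13% of all genes tested were lower, and 1 was higher (Gstp2), where 10.4% were higher. These shares of members are under the background in both directions. Without either EpCAM-positive library, whose spread enters the shared fit, Gstm4, Gstm5, Gsto1 and Sult4a1 passed as well, which gives 5 higher, where 14.4% of all genes were higher. With the replicate number as a block 4 were higher (adding Gsto1, Sult1a1 and Ugt2b36), where 13.2% of all genes were. Gstm2 was at 4.07 and 2.86 CPM in the b-gal+ libraries, 26.2 and 28.8 in the b-gal- libraries, 12.8 and 12.7 in the EpCAM-positive libraries and 22.9 and 51.9 in hepatocytes. It was lower in b-gal+ cells than in b-gal- cells (log2 difference -2.84, SE 0.381, adjusted p = 0.00306), and neither pair overlapped the other. Gstk1 stood at 10.0 and 10.4 CPM in the b-gal+ libraries, 28.8 and 32.7 in the b-gal- libraries, 16.3 and 22.0 in the EpCAM-positive libraries and 184 and 239.9 in hepatocytes; Gstk1, the kappa-class enzyme of mitochondria and peroxisomes, was also lower in b-gal+ cells (log2 difference -1.54, SE 0.207, adjusted p = 0.00303). Gstt2 had 5.14 and 6.32 CPM in the b-gal+ libraries, 12.8 and 16.4 in the b-gal- libraries, 12.3 and 16.3 in the EpCAM-positive libraries and 87.7 and 78.1 in hepatocytes; this theta-class gene was lower in b-gal+ cells (log2 difference -1.27, SE 0.230, adjusted p = 0.00921), a call lost without b-gal+ replicate 1 (adjusted p = 0.0588) or b-gal- replicate 2 (0.0822).

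Endothelial marker RNA was higher in the b-gal- than in the b-gal+ libraries by the sums given above, and in the same direction as Gstm2, Gstk1 and Gstt2; its part in these differences was not tested. Gstp2 was at 9.98 and 6.76 CPM in the b-gal+ libraries, 0.807 and 0.881 in the b-gal- libraries, 0.334 and 0.0374 in the EpCAM-positive libraries and 1.92 and 0.878 in hepatocytes. Gstp2, a pi-class gene, was higher in b-gal+ cells than in b-gal- cells (log2 difference 2.70, SE 0.400, adjusted p = 0.00431) and lower in EpCAM-positive than in F4/80high cells (log2 difference -2.35, SE 0.346, adjusted p = 0.00632), and both b-gal+ libraries lay above all 6 others. Macrophage marker sums were likewise highest in the b-gal+ libraries, and their part was not tested. Gstp1, the adjacent pi-class gene, was at 17.2 and 13.9 CPM in the b-gal+ libraries, 12.8 and 14.2 in the b-gal- libraries, 12.6 and 15.8 in the EpCAM-positive libraries and 375 and 52.2 in hepatocytes; it did not differ between the b-gal gates at the threshold (adjusted p = 0.901). Of 50-base stretches of Gstp1 and Gstp2, 33.7% and 54.3% occur in another gene, mostly the other one, so the division of reads between this pair is uncertain.

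**Figure D2:**
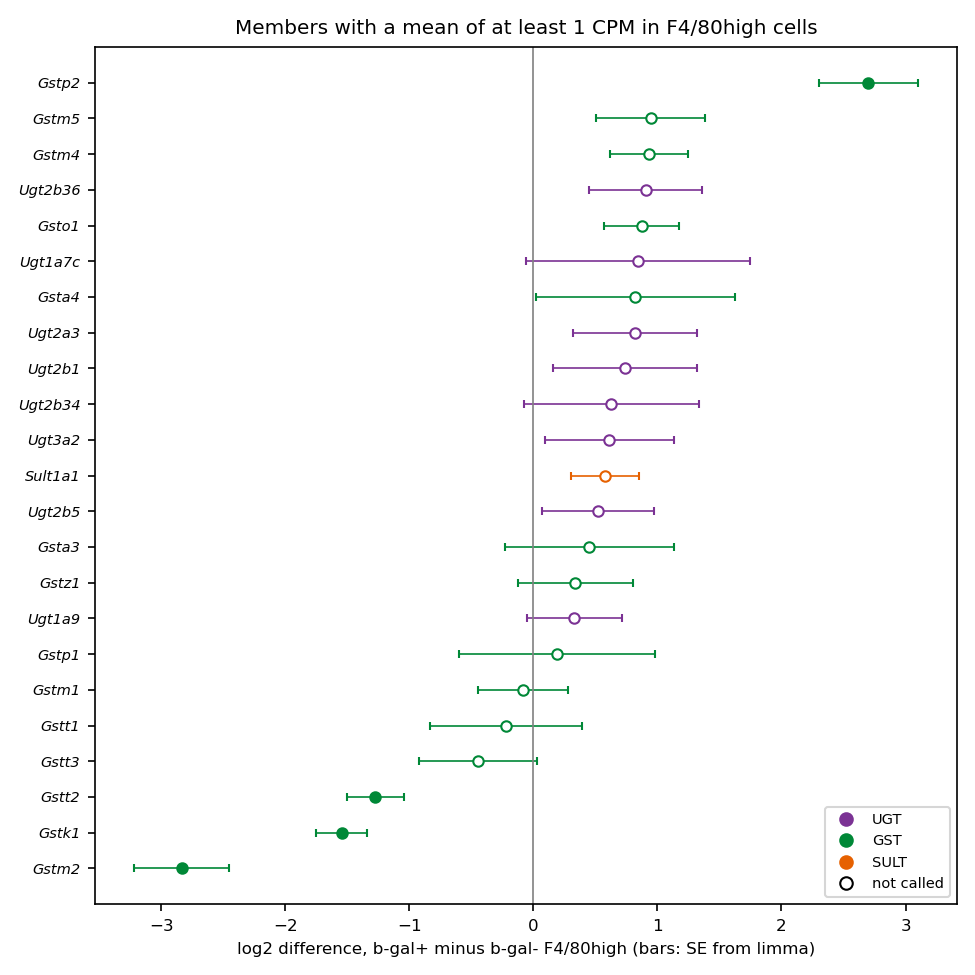
Log2 differences between b-gal+ and b-gal- F4/80high cells (x axis; points, with bars for the SE from limma) for the 23 tested members with a mean of at least 1 CPM in F4/80high cells. Filled points mark the 4 members that passed the threshold, Gstp2 at 2.70 and Gstt2, Gstk1 and Gstm2 at -1.27, -1.54 and -2.84; open points did not.

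Gsto1, the omega-class enzyme that reduces dehydroascorbate and protein thiol adducts, had the highest level per kb of exon among the GSTs in b-gal+ cells (32.2 CPM per kb). Gsto1 was at 74.0 and 56.3 CPM in the b-gal+ libraries, 42.5 and 28.9 in the b-gal- libraries, 33.6 and 19.3 in the EpCAM-positive libraries and 162 and 151 in hepatocytes. It was lower in F4/80high cells than in hepatocytes, by less than most members (log2 difference -1.70, SE 0.264, adjusted p = 0.00109). Its b-gal+ values exceeded its b-gal- values without passing the test (log2 difference 0.87, SE 0.304, adjusted p = 0.0866). With the replicate number as a block this difference passed (adjusted p = 0.0172), as did a lower level in EpCAM-positive than in F4/80high cells (log2 difference -0.89, adjusted p = 0.0131; 0.058 without the block). Its neighbour Gsto2 had 0.224 to 0.960 CPM in all libraries and passed the test in none of the 4 comparisons, with adjusted p-values from 0.229 to 0.853.

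**Figure D3:**
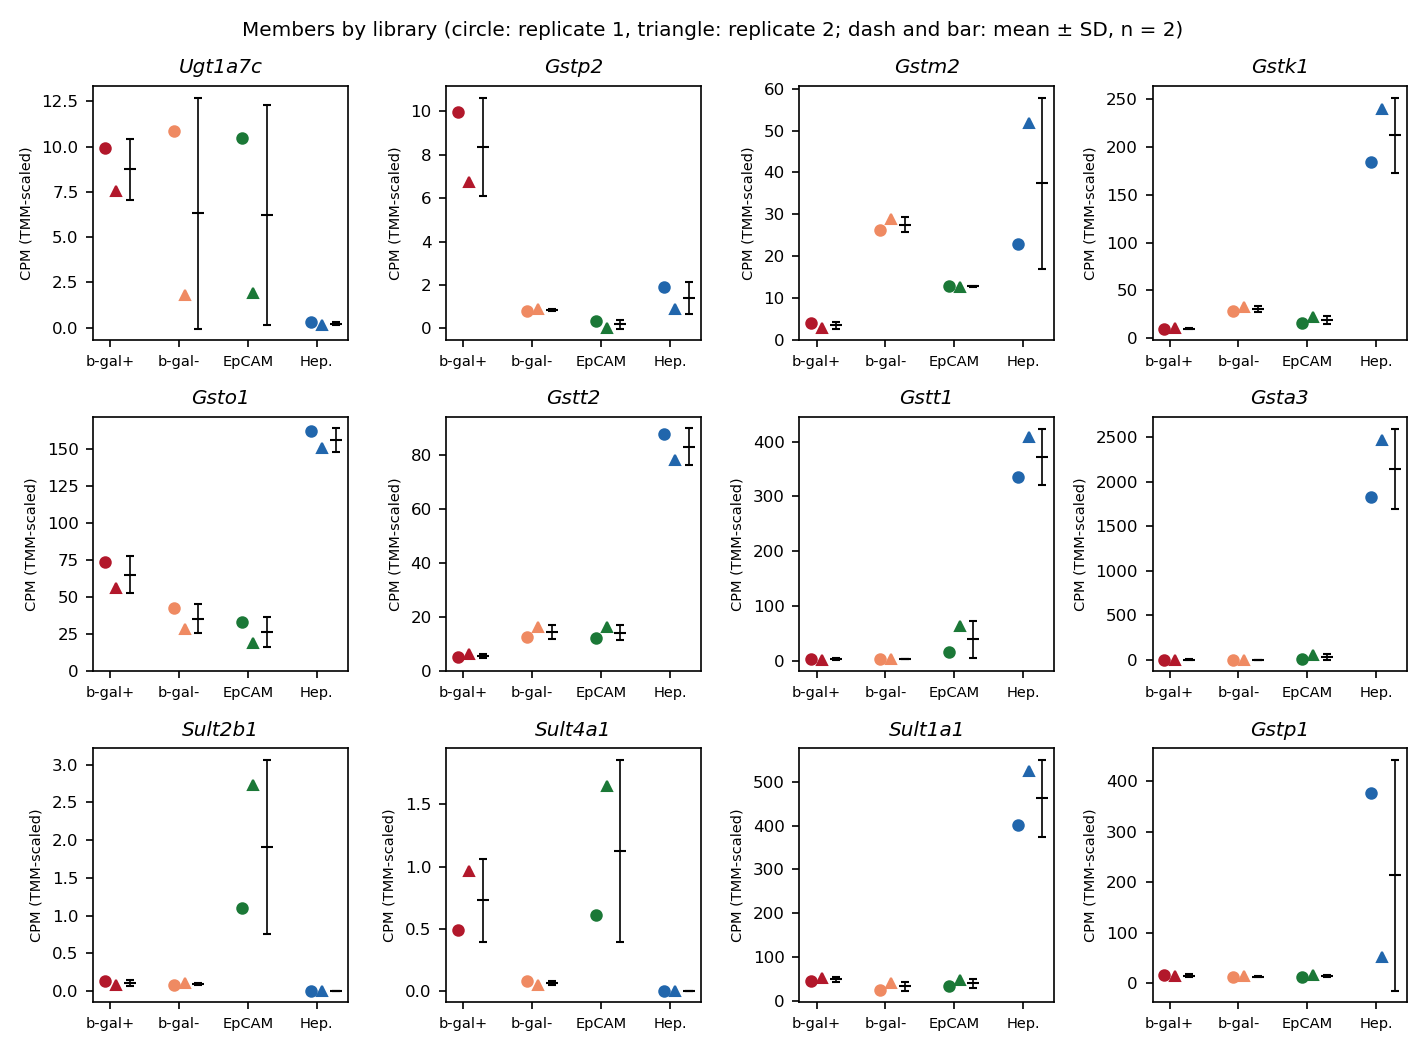
CPM of 12 members in each library (circles for replicate 1, triangles for replicate 2; dash and bar, mean ± SD, n = 2; linear axes, 1 scale per panel). Ugt1a7c, Sult2b1 and Sult4a1 are lowest in hepatocytes (Hep.), and Gstp2 is highest in b-gal+ cells. Gstm2, Gstk1 and Gstt2 are lower in b-gal+ than in b-gal- cells, and the remaining panels have both hepatocyte points above all others.

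EpCAM-positive cells exceeded F4/80high cells in 6 of 51 tested members (Gsta3, Gstt1, Gstt3, Gstm7, Ugt2b34 and Sult2b1), where 10.6% of all genes tested were higher, and were lower in 1 (Gstp2), where 9.2% were lower. With the replicate number as a block 4 were lower (adding Gsto1, Ugt1a9 and Ugt2a3), where 11.6% of all genes were. Gstt1 was at 3.44 and 1.69 CPM in the b-gal+ libraries, 2.96 and 2.89 in the b-gal- libraries, 15.5 and 63.1 in the EpCAM-positive libraries and 336 and 409 in hepatocytes. This theta-class gene, whose product conjugates small halogenated compounds, had the largest of these differences (log2 difference 3.33, SE 0.531, adjusted p = 0.00777). For Gsta3 the comparison gave a log2 difference of 3.08, SE 0.588, adjusted p = 0.0139. Gstt3 stood at 1.74 and 1.33 CPM in the b-gal+ libraries, 2.73 and 1.86 in the b-gal- libraries, 8.18 and 16.3 in the EpCAM-positive libraries and 113 and 253 in hepatocytes (log2 difference 2.35, SE 0.412, adjusted p = 0.0105). Gstm7 had 0.761 and 0.885 CPM in the b-gal+ libraries, 1.34 and 0.783 in the b-gal- libraries, 2.68 and 11.3 in the EpCAM-positive libraries and 124 and 138 in hepatocytes (log2 difference 2.10, SE 0.505, adjusted p = 0.0298). In all 4 GSTs both EpCAM-positive libraries lay above all F4/80high libraries and below both hepatocyte libraries.

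The EpCAM-positive replicates were far apart. Of the 32 members with at least 20 reads in this pair, 28 were higher in replicate 2, 21 of them by more than 2-fold, with a median ratio of 2.91. Cholangiocyte markers and hepatocyte markers were both higher in replicate 2 (hepatocyte markers without Alb, 197.7 and 935.2 CPM), so these contributions cannot be told apart in that pair. Without EpCAM-positive replicate 2 the calls of Gstm7, Gstt3 and Ugt2b34 were lost, leaving 3 members higher (all genes, 9.16%), and without replicate 1 there were 15 (all genes, 15.1%). Leaving out any of the other 6 libraries ended the calls of Gstm7 and Ugt2b34, leaving 4 (all genes, 6.04% to 7.41%).

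Among the SULTs, Sult1a1 was unlike the rest. Sult1a1 was at 45.3 and 53.1 CPM in the b-gal+ libraries, 26.2 and 40.7 in the b-gal- libraries, 33.7 and 47.9 in the EpCAM-positive libraries and 401 and 525 in hepatocytes. Sult1a1, the main phenol sulfotransferase, was thus present in every sort, and was lower in F4/80high (log2 difference -3.50, SE 0.237, adjusted p = 2.35e-05) and EpCAM-positive cells (log2 difference -3.50, SE 0.274, adjusted p = 7.16e-05) than in hepatocytes. Between b-gal+ and b-gal- cells it passed the test only with the replicate number as a block (log2 difference 0.58, SE 0.136, adjusted p = 0.0259; 0.184 without the block). It took most of the SULT reads outside hepatocytes, for example 45.3 of 47.3 CPM in b-gal+ replicate 1 and 47.9 of 59.7 CPM in EpCAM-positive replicate 2. Per kb of exon it was also the highest SULT in hepatocytes (307.0 CPM per kb), above Sult2a1 (234.7), Sult2a8 (214.0) and Sult2a2 (197.6).

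The 8 Sult2a genes (chr7:13623967-14494230), which sulfonate bile acids and hydroxysteroids, were read almost wholly in hepatocytes. Sult2a8 was at 0.716 and 1.33 CPM in the b-gal+ libraries, 0.384 and 0.734 in the b-gal- libraries, 0.274 and 1.27 in the EpCAM-positive libraries and 817 and 589 in hepatocytes. It was lower in F4/80high cells (log2 difference -9.12, SE 0.405, adjusted p = 5.22e-06) and in EpCAM-positive cells (log2 difference -9.21, SE 0.468, adjusted p = 1.59e-05). Sult2a1 stood at 0.224 and 0.322 CPM in the b-gal+ libraries, 0.115 and 0.0489 in the b-gal- libraries, 0 and 0.187 in the EpCAM-positive libraries and 308 and 171 in hepatocytes. Sult2a2 had 0.0447 and 0.0805 CPM in the b-gal+ libraries, 0 and 0.0489 in the b-gal- libraries, 0.0608 and 0.449 in the EpCAM-positive libraries and 149 and 144 in hepatocytes. Sult2a3 and Sult2a7 had 0 reads in all 6 other libraries, which puts F4/80high cells at least 242-fold and 323-fold lower. Sult2a1, Sult2a2 and Sult2a5 share 33.2% to 62.1% of their 50-base stretches with other genes, mostly each other, so their levels are uncertain one by one.

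Of the other hepatocyte SULTs, Sult1d1, which acts on catecholamines and whose promoter is shown above, was at 256 and 305 CPM in hepatocytes and at most 0.604 elsewhere. Sult1b1, which acts on thyroid hormones, was at 30.9 and 29.3 CPM and at most 0.112. Sult5a1 was at 87.7 and 49.0 CPM and at most 0.823. Sult1e1, the oestrogen sulfotransferase, had few reads even in hepatocytes, at 0.886 and 3.75 CPM. Sult1c2 was at 6.06 and 8.70 CPM in hepatocytes and at 0.304 and 4.11 CPM in EpCAM-positive cells; its call between these groups (log2 difference -2.01, SE 0.739, adjusted p = 0.0489) was lost in 5 of 8 other fits and in 7 of the 8 fits that leave out 1 library.

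Sult2b1 and Sult4a1 had 0 reads in both hepatocyte libraries. Sult2b1 was at 0.134 and 0.0805 CPM in the b-gal+ libraries, 0.0768 and 0.0979 in the b-gal- libraries, 1.09 and 2.73 in the EpCAM-positive libraries and 0 and 0 in hepatocytes. Sult2b1, a cholesterol sulfotransferase of epithelia, was higher in EpCAM-positive cells than in hepatocytes (log2 difference 2.18, SE 0.354, adjusted p = 0.0017; at least 16.6-fold by the floor) and than in F4/80high cells (log2 difference 1.93, SE 0.307, adjusted p = 0.00777). Sult4a1 stood at 0.492 and 0.966 CPM in the b-gal+ libraries, 0.0768 and 0.0489 in the b-gal- libraries, 0.608 and 1.65 in the EpCAM-positive libraries and 0 and 0 in hepatocytes. Sult4a1, an orphan member best known from brain, was higher in EpCAM-positive cells than in hepatocytes (log2 difference 1.62, SE 0.373, adjusted p = 0.00799; at least 9.79-fold). Its b-gal+ values exceeded its b-gal- values, which did not pass the test (log2 difference 1.10, SE 0.373, adjusted p = 0.0801). Both genes rest on few reads, 36 and 73 for Sult2b1 and 20 and 44 for Sult4a1 in the EpCAM-positive libraries.

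The levels outside hepatocytes were set beside those of 16 hepatocyte markers such as Alb, Apoa1 and Cps1. As a percentage of their hepatocyte mean, the highest of these markers was at 0.142% to 0.348% in the 4 F4/80high libraries and at 0.396% and 2.86% in the EpCAM-positive libraries (Alb in the second). Of the 40 members with at least 10 CPM in hepatocytes, 14 exceeded this marker range in all 6 other libraries: Gsta4, Gstk1, Gstm1, Gstm2, Gstm4, Gstm5, Gstm7, Gsto1, Gstp1, Gstt1, Gstt2, Gstt3, Gstz1 and Sult1a1. Thus 13 of the 14 were GSTs, of 17 GSTs at that level, with 1 of 10 SULTs and 0 of 13 UGTs. No share of all genes at that level stands beside these counts, since only the members were set against the marker range. In single libraries more UGTs exceeded it: 11 of 13 in b-gal+ replicate 2, 4 in b-gal+ replicate 1, 5 and 4 in the b-gal- libraries, and 3 and 0 in the EpCAM-positive libraries, so that 1 UGT exceeded it in none. Ugt1a6a and Ugt1a9 did so in all 4 F4/80high libraries but not in both EpCAM-positive libraries. For Ugt1a6b, 2 of the F4/80high values rest on 3 and 2 reads, at or under the limit of detection. They are not read as above the range, which left 3 UGTs in b-gal+ replicate 1 and 3 in b-gal- replicate 2. Sult2a5 exceeded the range only in b-gal+ replicate 2 and b-gal- replicate 2, on 2 and 3 reads, also at or under that limit. Gsta3 (0.624% and 2.68%), Ugt2b34 (0.544% and 2.59%) and Ugt2b35 (0.410% and 2.53%) lay above the range in EpCAM-positive replicate 1 and within it in replicate 2. In replicate 2 the upper end of the range was Alb alone. The median of the 16 markers was 0.0494% and 0.221% in these 2 libraries. For 11 members, 8 of them SULTs, no library outside hepatocytes exceeded the marker range. Gsta2 and Sult2a7, among them, had means of 17.3 and 10.3 CPM in hepatocytes and 0 reads elsewhere. In the F4/80high libraries the range for members this low lies under the limit of detection, so a level just above it would not have been seen. The part of hepatocyte RNA in the levels of these members was not tested further.

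**Figure D4:**
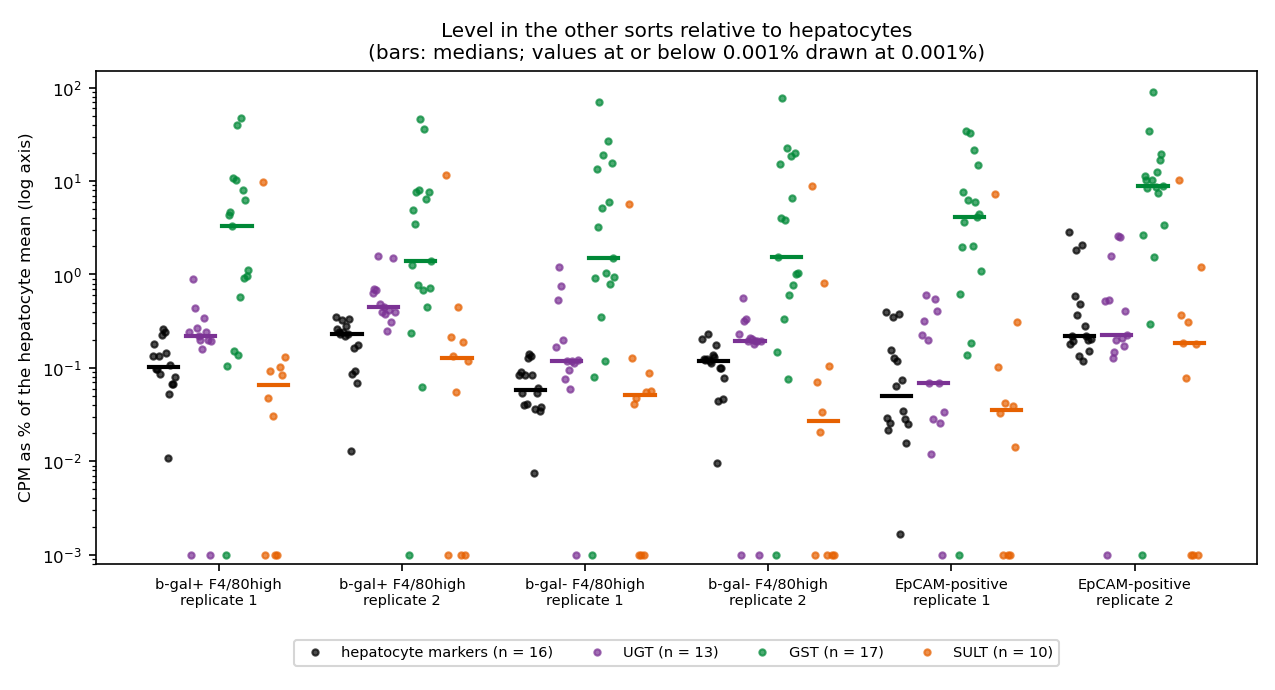
Level in each library outside hepatocytes as a percentage of the hepatocyte mean (y axis, log scale) for 16 hepatocyte markers and for members with at least 10 CPM in hepatocytes (13 UGT, 17 GST, 10 SULT); bars are medians and values at or below 0.001% are drawn at 0.001%. Most GST points lie above the hepatocyte markers and most SULT points do not; of the 13 UGTs, 11 lie above the highest marker in b-gal+ replicate 2 and 0 to 5 in each of the other libraries.

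The 2 hepatocyte libraries agreed for most members and differed widely for some. Of 49 members with at least 20 reads in this pair, 38 were within 2-fold of each other. The largest gap was in Sult3a1, a sulfotransferase of amines, with 5737 reads (423.7 CPM) in replicate 1 and 90 reads (7.19 CPM) in replicate 2. Gstp1 was at 375 and 52.2 CPM. Sult2a3 was at 12.3 and 3.19 CPM and Sult2a7 at 17.8 and 2.87, both higher in replicate 1, whereas Sult2a6 had 0 and 107 reads. Gstm2, Gstt3, Gsta1 and Sult1e1 were more than 2-fold higher in replicate 2, and Gstp2 and Ugt2b38 in replicate 1. Y-linked RNA was found in replicate 1 only (Ddx3y, 103 and 0 CPM) and Xist was at 414 and 1837 CPM, so the sex of the pooled mice and the replicate cannot be told apart. With 2 libraries, the group means of these 11 members carry an SD close to or above the mean in the widest cases (215 ± 295 CPM for Sult3a1).

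**Figure D5:**
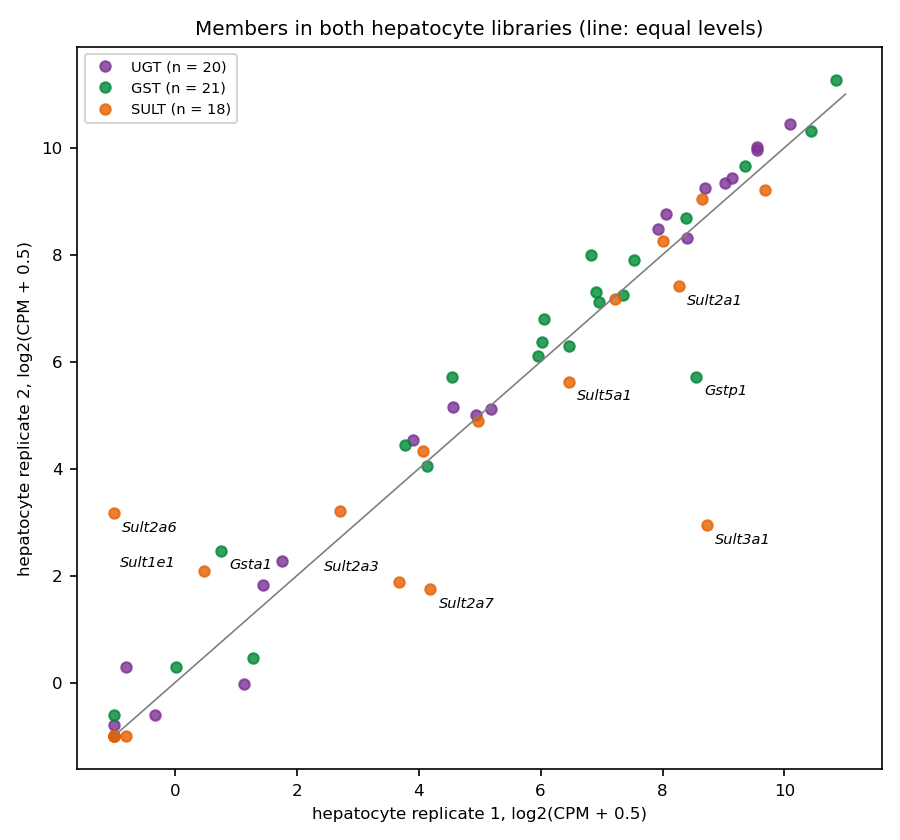
Level of the 59 members in hepatocyte replicate 1 (x axis) and replicate 2 (y axis), both as log2(CPM + 0.5); the line marks equal levels. Most points lie near the line, with Sult3a1 and Gstp1 far below it and Sult2a6 far above it.

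Other genes of conjugation were described from fixed lists, in the order of supply, parallel enzymes, cleavage, export and regulation. The background for each list in the comparison of F4/80high cells with hepatocytes is the share of all genes tested, 31.4% lower and 34.8% higher. Of 7 genes for the sugar and sulfate donors, 5 were lower in F4/80high cells than in hepatocytes and 2 were higher (Papss1 and Slc35b3). Papss2, the PAPS synthase that predominates in liver, was at 550.3 and 612 CPM in hepatocytes and 9.99 to 25.4 elsewhere (log2 difference -4.84, SE 0.218, adjusted p = 5.52e-06 in F4/80high cells), while Papss1 was at 34.5 and 31.0 CPM in hepatocytes and 40.3 to 75.5 elsewhere (log2 difference 0.63, SE 0.208, adjusted p = 0.0316). Ugdh, which makes UDP-glucuronate, was at 397 and 222 CPM in hepatocytes and 27.9 to 44.3 elsewhere (log2 difference -2.93, SE 0.238, adjusted p = 5.14e-05). Of 8 genes of glutathione supply 6 were lower and 1, Ggt5, was higher; Gclc, the catalytic subunit of glutamate-cysteine ligase, had a log2 difference of -3.19, SE 0.313, adjusted p = 1.22e-04.

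Of 14 membrane-bound and other conjugating enzymes, 10 were lower in F4/80high cells than in hepatocytes and 2 were higher (Mgst2 and Hpgds). Mgst1, the microsomal glutathione transferase, was at 4165 and 3792 CPM in hepatocytes and 15.1 to 117 CPM elsewhere (log2 difference -6.84, SE 0.493, adjusted p = 3.03e-05). Of 6 genes on the list for cleavage, 3 were lower (Ces1d, Ces2a and Bpnt1) and 2 were not called (Arsa and Arsb). The other, Gusb, the lysosomal β-glucuronidase, was higher (log2 difference 1.25, SE 0.456, adjusted p = 0.046). The exporters divided: Abcc2, the canalicular pump, was at 533 and 739 CPM in hepatocytes and at most 0.587 elsewhere (log2 difference -9.43, SE 0.259, adjusted p = 3.05e-06), whereas Abcc1 was at 2.29 and 2.24 CPM in hepatocytes and 39.8 to 142 CPM elsewhere (log2 difference 5.02, SE 0.274, adjusted p = 1.03e-05). Abcc3, a basolateral pump, was at 853 and 902 CPM in b-gal+ and 119 and 109 CPM in b-gal- cells, and was higher in b-gal+ cells (log2 difference 2.94, SE 0.433, adjusted p = 0.00423).

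Of 11 regulators, 9 were lower in F4/80high cells than in hepatocytes and 1, Nfe2l2, the gene of NRF2, was higher (log2 difference 0.72, SE 0.167, adjusted p = 0.0073). Hnf4a was at 1343 and 1189.8 CPM in hepatocytes, 7.24 and 35.0 in EpCAM-positive cells and at most 2.57 in F4/80high cells. Between the b-gal gates, Rxra, the partner of many nuclear receptors, was higher in b-gal+ cells (log2 difference 1.76, SE 0.180, adjusted p = 0.00137), as was Cebpa (log2 difference 1.95, SE 0.268, adjusted p = 0.00332), and Ahr, the aryl hydrocarbon receptor, was lower (log2 difference -2.38, SE 0.267, adjusted p = 0.00174). Ahr was at 59.0 and 47.4 CPM in the b-gal+ libraries, 209 and 369.9 in the b-gal- libraries, 152 and 148 in the EpCAM-positive libraries and 86.0 and 86.2 in hepatocytes. Over the 6 lists, EpCAM-positive cells against hepatocytes gave 10 genes higher and 37 lower of 51 tested, beside 33.5% and 29.1% of all genes; the corresponding counts for F4/80high cells were 9 and 35, beside 34.8% and 31.4%.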

How the data were processed

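The deposited values of hepatocyte replicate 1 are read counts per gene symbol. Those of the other 7 libraries are read counts that the authors had multiplied by 1 factor per library, written with decimal commas; per the submitters' processing notes, HTSeq and GRCm38.p4 (mm10) were used. Aligner, annotation, versions and the scaling step are not given in the sources used here. Dividing by each library's step gave whole reads for 100% of values within 0.01. Of 21982 rows, 14 carry dates in place of symbols (0.0514% to 0.182% of the values) and were left out. No column of another sample was present.

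Reads were scaled with TMM (edgeR 4.0.16). Genes passing its default filter, 14404, were tested with limma 3.58.1 (trend, log2(CPM + 0.5), two-sided, all 8 libraries in 1 fit, no block, Benjamini-Hochberg over all genes, call at adjusted p under 0.05), in R 4.3.3, after checks on simulated data. Replicate numbers come from the labels, which do not say that a number marks shared mice; deviations of same-numbered libraries from their group means correlated at 0.177 to 0.494 across genes in all 6 pairs of groups, so values with the number as a block are given where they change a call. Fold changes of genes near 0 reads depend on the pseudocount. The count tests of edgeR and DESeq2 1.42.0 on the recovered reads were alternatives, beside other scalings, filters, pseudocounts, a block and leaving out each library. Positions and exon lengths are from GENCODE M21, and promoters from RefSeq (51 of 59 members matched).

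Values in every library are given for the 4 members of each family with the highest CPM per kb in any group and for called members with at least 10 CPM in the higher group, up to 4 genes per pathway list (highest mean CPM), and a few others chosen after their values were seen. Members and lists were chosen with earlier results of these data known. Counting-error limits do not cover duplicate reads, since no molecular identifiers were available.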

Additional observations from a re-analysis of the deposited data

How the results depend on the processing

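Each group has 2 libraries, so leaving 1 out gives a lone library that is assumed to vary like the other groups. The counts of members lower than in hepatocytes stayed at 44 to 46 (EpCAM-positive) and 45 to 46 (F4/80high) when 1 library was left out. Members above hepatocytes in F4/80high cells numbered 1 in the report; the count was 3 with the deposited scaling, 2 with a pseudocount of 0.1 or 2, 2 with edgeR and with DESeq2, and 0 to 3 without 1 library, 0 being without hepatocyte replicate 2. Members higher in b-gal+ than b-gal- cells numbered 2 with a pseudocount of 0.1, 4 with DESeq2 and 1 to 5 without 1 library. For EpCAM-positive against F4/80high cells DESeq2 gave 13 higher and 3 lower (all genes, 14.8% and 11.8%), and leaving out 1 library gave 3 to 15 higher and 1 to 2 lower (all genes, 6.04% to 15.1% and 4.56% to 11.8%). All-gene shares moved in the b-gal comparison too, from 2.65% to 14.4% higher without 1 library and 16% with DESeq2. The cause of these shifts was not tested.

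With the replicate number as a block, 4 members were higher in b-gal+ cells (adding Gsto1, Sult1a1 and Ugt2b36), 2 were above hepatocytes in F4/80high cells (adding Gstp2) and 4 were lower in EpCAM-positive than F4/80high cells (adding Gsto1, Ugt1a9 and Ugt2a3). The block lost no call of a member.

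Differences near 0 that passed no test changed sign. Between b-gal+ and b-gal- cells Gstm1 was at 0.0068 with DESeq2 size factors; without 1 library Gstm1 ran from -0.24 to 0.071, Gsta3 from -0.036 to 0.97 and Gstt1 from -0.64 to 0.24 (log2). Between EpCAM-positive and F4/80high cells Sult2a8 was at 0.051 with the deposited scaling, 0.0048 with edgeR and 0.039 with DESeq2; without 1 library Sult2a8 ran from -0.67 to 0.50, Sult2a1 from -0.40 to 0.035, Sult1a1 from -0.24 to 0.26 and Gstz1 from -0.034 to 1.58, the last past the threshold without EpCAM-positive replicate 1.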
